A study of Drosophila melanogaster with 4 samples.

Results

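JHDM1, also called KDM2, was mapped with antibody Q2634 by chromatin immunoprecipitation and sequencing (ChIP-seq) in Drosophila melanogaster. The material was embryos aged 14 to 16 h of the wild-type strain Oregon-R. The regions described here are the JHDM1 clusters of chromosome arm 3R that lie outside the Hox gene complexes. A cluster is a stretch that the authors listed as significantly enriched. Members were taken from the authors' combined list for the replicate set. They are all rows on 3R whose midpoint falls outside 3R:2480000-2830000 and 3R:12480000-12810000, the windows around both Hox complexes, on FlyBase release 5. The rule used position only. It gave 2771 clusters, out of 2828 on the whole arm and 11598 in the whole list. The same windows left 1143 clusters of ChIP replicate 1 and 1158 clusters of ChIP replicate 2 on the arm. The series holds 2 ChIP samples and 2 input samples, all of 1 strain, genotype and stage, and the inputs were not analysed here. Nothing in the labels ties the replicates to separate collections of embryos, and their spread may be only technical.

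KDM2 proteins are histone demethylases with a JmjC domain that acts on methylated lysine of histone H3, and they also carry a zinc finger of the CXXC type. In vertebrates that finger binds DNA with unmethylated CpG. In Drosophila the protein is known as a partner of the Polycomb proteins Psc and Sce (Ring) in a complex that adds ubiquitin to histone H2A. Polycomb proteins hold the Hox genes silent where they should not be expressed, and the windows around those genes are the ones left out here. The material was whole embryos, so a site bound in few cells and a site bound weakly in many cells cannot be told apart. The lists are on release 5 and no annotation of that release was used here, so sites are given by position, without gene names or sequence.

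JHDM1 clusters were spread over the whole assembled arm, from its first bases on the centromere side to within 10246 bases of its last. The 2771 members covered 5.68 Mb, or 20.9% of the 27.2 Mb of 3R that remain without the windows, at 101.8 clusters per Mb. The replicate lists were shorter, with 42.3 ± 0.390 clusters per Mb (SD, n = 2) covering 8.78% ± 0.0841 of the same length. The first member, 3R:4-2245, had a combined score of 0.574, with 0.643 in replicate 1 and 0.646 in replicate 2. The last, 3R:27893017-27894807, had a combined score of 0.397, with 0.518 in replicate 1 and 0.497 in replicate 2. Both ends of the assembled arm therefore carried a cluster in every list. Each score was computed by the authors, on a scale that they do not state. It is read here as an order of clusters within a list. Whether the lists share a scale is not stated, so a difference in score between them does not show a difference in binding.

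Few members were found in both replicates. Of the 2771 members, 780 overlapped clusters of both replicates by at least 1 base, or 28.1% (exact 95% Clopper-Pearson interval 26.5 to 29.9%). Over all 6 arms the share was 27.8%, so 3R stood near the background in this respect. A further 313 members (11.3%, against 11.4% over all arms) overlapped a cluster of replicate 1 only. Another 305 (11.0%, against 11.6%) overlapped a cluster of replicate 2 only. The largest class, 1373 members or 49.5% (47.7 to 51.4%), overlapped a cluster of neither replicate, against 49.1% over all arms. Counted once for each replicate, 1093 members (39.4%) overlapped a cluster of replicate 1 and 1085 (39.2%) a cluster of replicate 2, against 39.3% and 39.4% over all arms. By covered bases the order was turned, since clusters found in both replicates took 44.0% of the covered length and those found in neither took 33.3%. The intervals treat clusters as independent, which neighbours need not be, and they cover counting error only. Both replicates also went into the combined list, so no test applies to these shares.

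Replicate support rose steeply only among the highest scores. In the plot of support by combined score, members are divided into 10 classes of about equal size. In the highest class, with scores from 0.629 to 2.63, 96.4% of members had support from both replicates and 3.25% had none. In the class below it, from 0.4999 to 0.628, these shares were 71.1% and 21.3%. The third class from the top had 32.1% found in both replicates. In the lowest 4 classes the share found in both lay between 6.12% and 9.78%, with no steady rise, and the lowest class of all had more than the one above it. Members found in 1 replicate only were most common among low scores, with 19.8% of the lowest class found in replicate 1 only and 16.5% in replicate 2 only. In the highest class 1 of 277 members was found in replicate 1 only and 0 in replicate 2 only. Both replicates went into the combined list, so its score and the replicate support are not independent. Members of the highest class were also wide, which eases an overlap of 1 base. Their median width was 2942 bases, against 1571 bases in the lowest class. Shares by score class were not computed over all arms, so they are not shown to be particular to 3R.

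**Figure D1:**
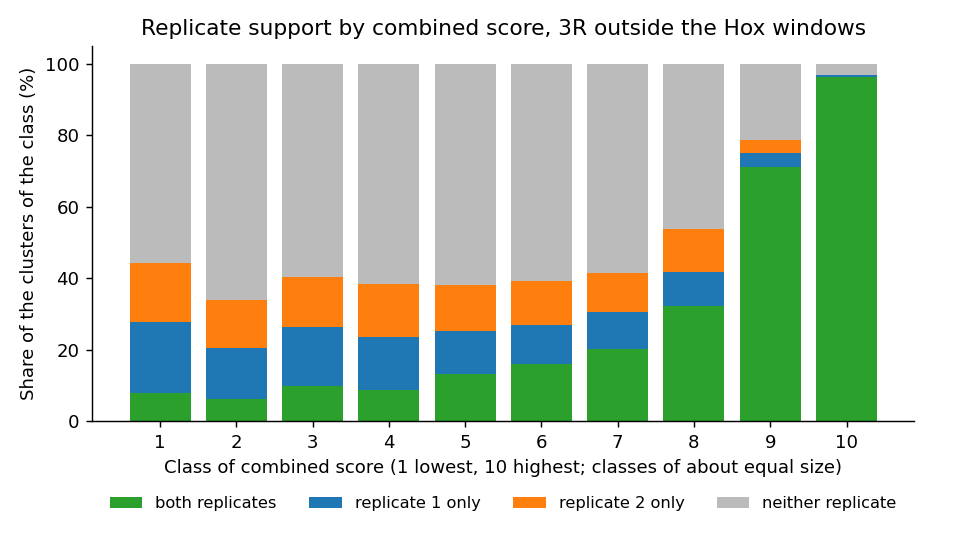
Share of members (%) found in both replicates, in 1 replicate only or in neither, for 10 classes of combined score from low to high. Members found in both make up 96.4% of the highest class and 7.91% of the lowest.

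Fully supported members were the widest and had the highest median score. Members found in both replicates had a median width of 2758 bases (quartiles 2173 and 3750). Those found in replicate 1 only had a median of 1896 bases, those found in replicate 2 only 1892 bases, and those found in neither 1267 bases. The class without support thus held the narrowest clusters. The narrowest cluster of the arm in either replicate list had 1301 bases, while members of the combined list began at 1001 bases. Of the members found in neither replicate, 757 (55.1%) were narrower than that replicate minimum, against 0 of the 780 found in both (upper limit of the exact 95% interval 0.472%). These smallest widths were not particular to 3R, since on X the replicate lists also began at 1301 bases and the combined list at 1001. A wide member also has more room for an overlap of 1 base, so the contrast is partly set by the lists and the rule. Median scores were 0.541 for members found in both, 0.389 and 0.397 for those found in replicate 1 only and replicate 2 only, and 0.405 for those found in neither. The median score of unsupported members was therefore no lower than that of members with support from 1 replicate.

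Width and score went together in opposite ways in these classes. Across the 780 members found in both replicates, Spearman's rho of width and score was 0.33. It was 0.35 and 0.38 for members found in replicate 1 only and replicate 2 only, and -0.41 for the 1373 found in neither. These are descriptions across clusters of 1 list, given without a test. Among members found in both, the 69 below 2000 bases had scores no higher than 0.438, with a median of 0.358. The 254 from 2000 to below 2500 bases had a median of 0.532 and reached 1.996. Beyond that width the median changed little, with 0.580 from 2500 to below 5000 bases and 0.552 at 5000 bases or more. Among members found in neither replicate, the highest scores sat on the narrowest clusters. The maximum was 2.63 over 987 members below 1500 bases and 0.605 over 314 from 1500 to below 2000 bases. Their medians had no steady course, with 0.415 and 0.368 in these classes. The median was 0.414 over 33 members from 2000 to below 2500 bases and 0.395 over 39 from 2500 to below 5000 bases.

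**Figure D2:**
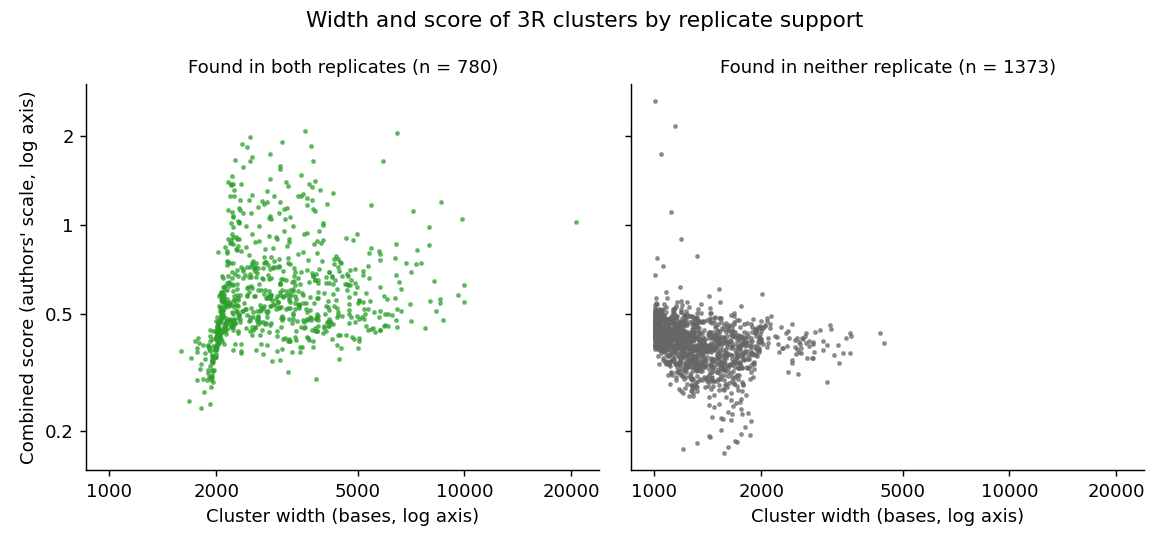
Width (bases, log axis) against combined score (authors' scale, log axis) of each member, for the 780 members found in both replicates (left) and the 1373 found in neither (right). Scores on the left rise sharply where width passes 2000 bases, while the highest scores on the right belong to clusters close to the minimum of 1001 bases.

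The highest-scoring members with full support were spread along the arm, with 1 pair 23.3 kb apart. The 12 with the highest combined scores ran from 1.65 to 2.09 and had widths from 2253 to 6455 bases, with a median of 2676 bases. The highest was 3R:4492884-4496432, with a combined score of 2.09 and scores of 2.38 in replicate 1 and 1.73 in replicate 2 (mean 2.06 ± 0.463, SD, n = 2). At 23.3 kb on its centromere side lay another of the 12, 3R:4467092-4469616, with scores of 1.91 in replicate 1 and 1.43 in replicate 2. These were the closest of the set, and the next closest pair lay 182.9 kb apart. The second highest, 3R:13440588-13447042, was also the widest of the 12, at 6455 bases, with scores of 2.29 in replicate 1 and 1.86 in replicate 2. Then came 3R:25607109-25609602 with 2.15 in replicate 1 and 1.89 in replicate 2, and 3R:18221198-18224268 with 2.22 in replicate 1 and 1.72 in replicate 2. In 11 of the 12 the score of replicate 1 was the higher. The exception was 3R:11490845-11493209, with 1.79 in replicate 1 and 2.04 in replicate 2.

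In most of these the lists gave nearly the same borders. At 3R:19426147-19428399 the combined cluster spanned 2253 bases, that of replicate 1 2251 bases and that of replicate 2 2173 bases. At 3R:3964190-3967886 the widths were 3629 bases in replicate 1, 3878 bases in replicate 2 and 3697 bases in the combined list. One of the 12 was built differently. The member 3R:17677655-17683534, of 5880 bases, held 2 clusters of each replicate. Of these, the one with the larger overlap scored 2.28 in replicate 1 and 2.25 in replicate 2. The remaining members of the set, 3R:22771970-22774413, 3R:17866478-17869304 and 3R:22286027-22288518, had mean replicate scores of 1.81 ± 0.444, 1.77 ± 0.435 and 1.69 ± 0.0148 (SD, n = 2 each).

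Clusters of both replicates that overlapped lay close in place, which pairing by overlap ensures, and their scores were correlated. The 1143 clusters of replicate 1 included 798 that overlapped a cluster of replicate 2, or 69.8% (67.1 to 72.5%), against 69.6% over all arms. In the other direction 809 of 1158 overlapped, or 69.9% (67.1 to 72.5%), against 69.2% over all arms. The centres of paired clusters were a median of 123.5 bases apart, with quartiles at 41.8 and 341.1 bases. In 411 of the 798 pairs (51.5%) 1 cluster lay wholly inside the other, and in 30 pairs the overlap was below 50% of the smaller cluster. Scores of pairs had a rank correlation (Spearman's rho) of 0.68 and a Pearson's r of 0.84, as a description over 798 pairs from the same libraries. Widths had a rho of 0.54. The plot of paired scores bends below the line of equal scores at its upper end. Of 94 pairs whose scores averaged at least 1, 65 (69.1%) were higher in replicate 1, with medians of 1.34 in replicate 1 and 1.21 in replicate 2. Among the other 704 pairs, 337 (47.9%) were higher in replicate 1, with medians of 0.603 in replicate 1 and 0.622 in replicate 2.

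**Figure D3:**
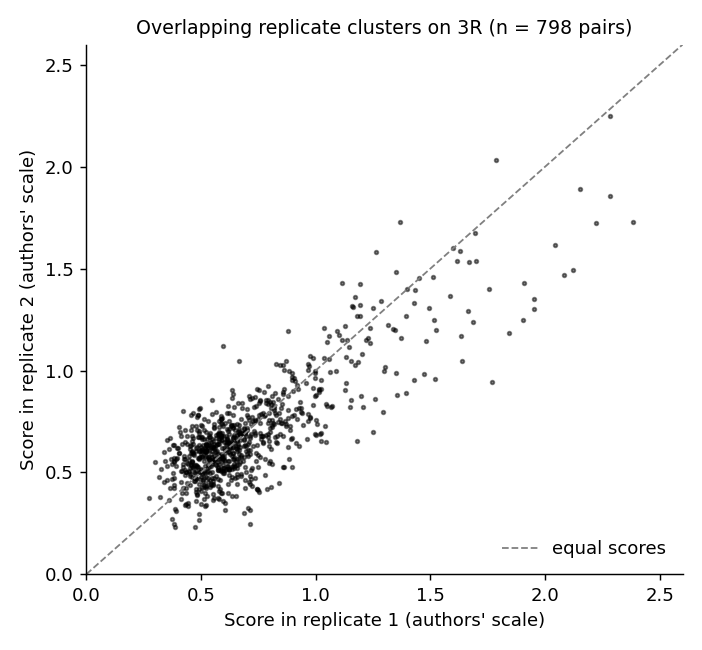
Score in replicate 1 (x axis) and in replicate 2 (y axis), both on the authors' scale, for 798 overlapping pairs of clusters on 3R, with a dashed line of equal scores. Among the 94 pairs whose scores averaged at least 1, 65 lie below the line.

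Clusters of 1 replicate that the other lacked were narrower and scored lower. The 345 of replicate 1 without a partner had a median width of 1546 bases and a median score of 0.525, against 2083.5 bases and 0.632 for those with one. The 349 of replicate 2 without a partner had 1558 bases and 0.581, against 2059 bases and 0.644. Nearly all replicate clusters entered the combined list. In replicate 1, 5 of 1143 overlapped no combined cluster, and 99.6% did, against 99.3% over all arms. In replicate 2, 20 of 1158 overlapped none, and 98.3% did, against 98.7% over all arms. The clusters left out were narrow, from 1308 to 1877 bases in replicate 2 and from 1317 to 1790 bases in replicate 1. Their scores ran up to 1.095 in replicate 2, so a high score in 1 replicate did not always place a region in the combined list. The median score of those left out of replicate 2 was 0.597, against 0.618 for those included.

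A small part of the members spanned what the replicates held as separate clusters. Of the 1093 members that overlapped replicate 1, 50 overlapped at least 2 of its clusters. Of the 1085 that overlapped replicate 2, 57 did so, and no member overlapped more than 3 of either. Over members found in both replicates, clusters of replicate 1 covered a median of 82.5% of the member and those of replicate 2 covered 81.3%. Together they covered 94.1%, and both at once 72.0%. In 11 of the 780 members (1.41%) the clusters of the replicates did not touch each other, against 1.17% over all arms, so that both supported the member at different places.

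Most of the 8 widest members spanned more than 1 cluster of at least 1 replicate. The widest was 3R:12064888-12085487, of 20600 bases with a combined score of 1.02, matched by 1 cluster of 16309 bases in replicate 1 and by 2 clusters in replicate 2, the larger overlap being with 1 of 11057 bases. Next came 3R:7040803-7050795 of 9993 bases and 3R:6206862-6216845 of 9984 bases, with combined scores of 0.549 and 0.626. These took in 2 clusters of each replicate and 3 clusters of each replicate. At 3R:9621533-9631375, of 9843 bases, replicate 1 had 2 clusters and replicate 2 had 3. At 3R:15724895-15734464, of 9570 bases, each replicate had 2. A wide member was thus not the same as a wide cluster in the replicates. The member 3R:19576722-19585428, of 8707 bases, had 1 cluster of 2015 bases in replicate 1 at its centromere side and 1 of 2141 bases in replicate 2 at its telomere side, which did not overlap each other. The reverse held at 3R:4876138-4884731, of 8594 bases, where single clusters spanned 8343 bases in replicate 1 and 7474 bases in replicate 2. The last of the 8 widest, 3R:1387690-1396232, took in 1 cluster of replicate 1 and 3 of replicate 2. In all, 86 members (3.10%) were at least 5000 bases wide. Both replicates supported 79 of these, and 0 lacked all support. Members this wide have more room for an overlap of 1 base, and these shares were not computed over all arms.

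Members had small gaps between them, with a long tail of wide ones. The median gap between neighbours was 3118.5 bases (quartiles 1042 and 8723), measured without the gaps that span a Hox window. In the replicate lists the median was 10860.5 bases in replicate 1 and 9778.5 bases in replicate 2. Neighbours could lie very close, and 373 of the 2766 gaps (13.5%) were below 500 bases, the smallest being 1 base. A further 2 neighbouring pairs touched with no base between them and are not counted as gaps. In the replicates 51 gaps (4.47%) in replicate 1 and 67 gaps (5.81%) in replicate 2 were as small. At the other end, 57 gaps above 50 kb made up 2.06% of the gaps and 15.4% of the remaining length of the arm. In replicate 1 the gaps above 50 kb took 43.5% of that length, and in replicate 2 they took 43.8%. The standard deviation of the gaps was 1.68 times their mean in the combined list, 1.36 times in replicate 1 and 1.51 times in replicate 2.

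**Figure D4:**
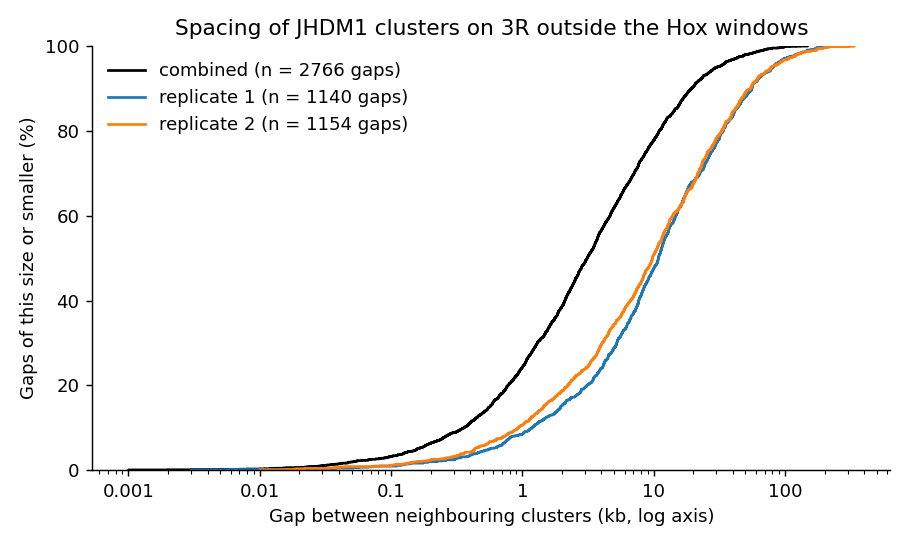
Cumulative share (%) of gaps between neighbouring clusters by gap size (kb, log axis) in the combined list and in each replicate list. The combined curve reaches its middle at 3118.5 bases, and the curves of replicate 1 and replicate 2 at 10860.5 and 9778.5 bases.

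Joined at gaps below 1 kb, 1155 members (41.7%) fell into 481 chains and 1616 stood alone. Most chains were pairs, with 335 of 2 members, 112 of 3 and 34 of 4 or more. The chain with the most members, 3R:4871898-4898754, had 7 in 26.9 kb, of which 4 were found in both replicates. It contains the wide member at 3R:4876138-4884731. The chain at 3R:12043273-12090790 was longer, with 6 members over 47.5 kb, of which 5 had support from both replicates and 0 had none. It contains the widest member of all. By contrast, of the 6 members at 3R:20757399-20771973, 1 was found in both replicates and 4 in neither, and no score exceeded 0.460. The limit of 1 kb was chosen after the gaps were seen.

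By median distance, members found in neither replicate were about as far from fully supported members as those were from each other. They lay a median of 7809 bases (quartiles 2533 and 19002) from the nearest member found in both. Members found in both lay a median of 7688 bases (quartiles 2397 and 18414.5) from the nearest other of their kind. Members found in replicate 1 only lay at a median of 7461 bases, and those found in replicate 2 only at 5494 bases. Within 5 kb of a member found in both were 38.6% of the members found in neither and 38.8% of the others found in both. At closer range the unsupported class had the lowest share. Within 1 kb were 11.4% of members found in neither and 15.3% of the others found in both. The shares were 13.7% for replicate 1 only and 19.3% for replicate 2 only. Scores of adjacent members had a rho of 0.003 over 2768 neighbouring pairs, and widths had a rho of 0.02, so neither measure ran on from a member to the next.

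In the combined list the density of clusters along 3R rose and fell with little slope from centromere to telomere. In 25 full bins of 1 Mb that hold no part of a Hox window, the combined list had between 67 and 147 clusters, with a median of 95. The rank correlation of the combined count with distance from the centromere side was -0.09 over these bins. Replicate counts were lower towards the telomere. The 11 bins on the centromere side of the arm's midpoint had medians of 44 clusters in replicate 1 and 45 in replicate 2. The 13 on the telomere side had 36 in replicate 1 and 38 in replicate 2. In the combined list these medians were 99 on the centromere side and 95 on the telomere side. These differences were not tested. The 3 densest bins of the combined list were 3R:20000001-21000000 with 147 members, 3R:5000001-6000000 with 144 and 3R:1000001-2000000 with 136. In the replicates these held 53, 61 and 54 clusters in replicate 1, and 55, 69 and 55 in replicate 2. The 3 emptiest of the combined list were 3R:15000001-16000000 with 67 members, 3R:3000001-4000000 with 72 and 3R:21000001-22000000 with 78. The replicates had 33, 35 and 31 clusters there in replicate 1, and 35, 24 and 38 in replicate 2. The replicates ranked other bins at some of these places. In replicate 1 the emptiest bin was 3R:23000001-24000000 with 29 clusters, and 3R:19000001-20000000, with 57, was its second densest. In replicate 2 the emptiest was 3R:3000001-4000000. The bin 3R:5000001-6000000 was the densest in both. The replicates differed at 3R:3000001-4000000, with 29.5 ± 7.78 clusters (SD, n = 2). A dense bin could border an empty one, as 3R:20000001-21000000 borders 3R:21000001-22000000.

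**Figure D5:**
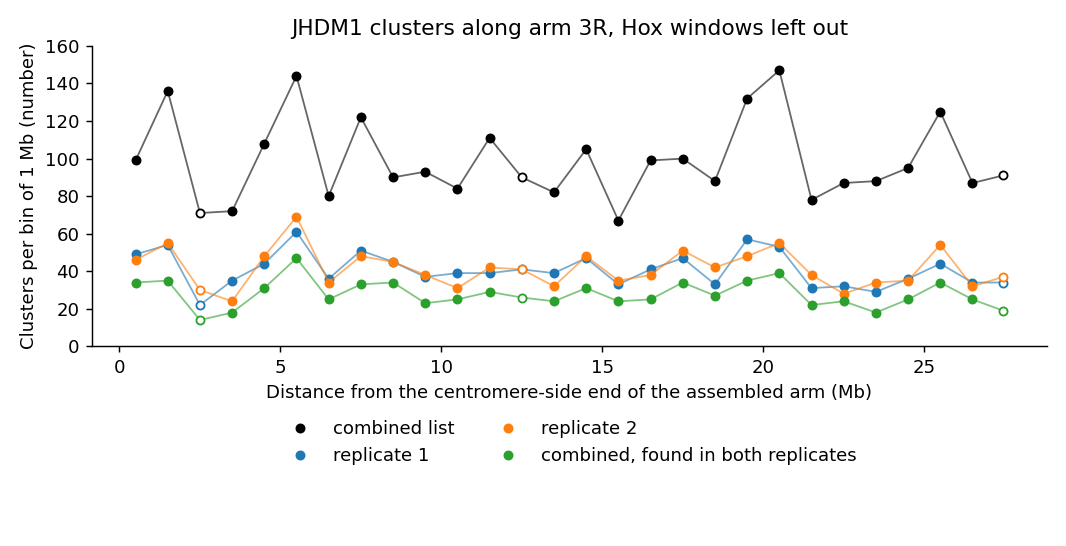
Number of clusters in each bin of 1 Mb along 3R, by distance from the centromere-side end of the assembled arm (Mb), for the combined list, each replicate and members found in both replicates. Open circles mark bins that hold part of a Hox window and the shorter last bin. The combined counts of the full bins run from 67 to 147, and the lines of both replicates rise together near 5 and 20 Mb.

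Counts of the replicates followed each other over the 25 bins, with a rho of 0.80 and a Pearson correlation of 0.84. All bins come from the same libraries, so this is a description and no p is given. Bins rich in members found in both replicates were also rich in those found in neither, with a rho of 0.67. The share found in both ran from 20.5% of members, in 3R:23000001-24000000, to 37.8%, in 3R:8000001-9000000. Its rho with the number of members in the bin was -0.20, so the supported share did not rise with density over these bins. The first megabase from the centromere side held 99 members, close to the median bin. Inside it the count lay between 4 and 21 per 100 kb, with the peak at 3R:200001-300000, which had 10 clusters in replicate 1 and 11 in replicate 2. The shortened last bin, of 905.1 kb, held 91 members, of which 19 were found in both replicates.

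At a finer scale, the densest stretches of 100 kb held about the same number of members at several places. Over 269 such bins the median was 10 members (quartiles 7 and 14). The most, 22, were at 3R:1400001-1500000 and 3R:5500001-5600000. The first of these had 12 clusters in replicate 1 and 11 in replicate 2, and 7 of its members were found in both. The second had 7 clusters in replicate 1 and 10 in replicate 2. There followed 4 bins tied at 21 members, namely 3R:4800001-4900000, 3R:200001-300000, 3R:25800001-25900000 and 3R:20100001-20200000. Replicate support differed among them, with 8 members found in both at 3R:4800001-4900000 and 5 at 3R:20100001-20200000, where each replicate had 6 clusters. In 30 of the 269 bins (11.2%) no member was found in both, and in 2 bins there was no member at all.

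The 4 longest gaps of the combined list held no cluster of either replicate. This follows in large part from the lists, since 99.6% of replicate 1 clusters and 98.3% of replicate 2 clusters overlapped a combined cluster. The longest gap of the combined list was 3R:23974193-24122684, of 148.5 kb. It was bordered by a member found in replicate 1 only and a member found in neither. The next, 3R:8611951-8741645 of 129.7 kb, 3R:18629733-18749946 of 120.2 kb and 3R:6799180-6907567 of 108.4 kb, were likewise empty in all lists. At 3R:23272878-23372348, of 99.5 kb, 2 clusters of replicate 1 and 0 of replicate 2 overlapped the gap by at least 1 base. None of the members that border these 5 stretches was found in both replicates, so the stretches without a fully supported cluster were longer still. The longest of those was 3R:23815924-24150881, of 335.0 kb, with 13 members inside it that lacked support from 1 or both replicates. The longest gap of replicate 2, 3R:23814498-24150968 of 336.5 kb, took in nearly the same stretch, and 3 clusters of replicate 1 overlapped it. The longest gap of replicate 1 was 3R:18608259-18834844, of 226.6 kb, and 2 clusters of replicate 2 overlapped it. Of these, 3R:18606639-18608624 reached in only at its centromere-side edge. How well reads align in these stretches was not tested.

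The distance from the edges of the Hox windows to the first member differed from edge to edge. The closest member to an edge was 3R:12479248-12480458, whose midpoint lies 147 bases before the second window, with a score of 0.471 and support from neither replicate. Just inside that edge was 3R:12480581-12483043, with a score of 0.438 and found in both. Beyond the telomere side of that window the first member was 3R:12811309-12814463, found in both with a score of 0.852, and the last cluster inside was 3R:12807080-12808595 with 0.260. Before the first window the last member was 3R:2476839-2478587, found in neither with 0.392, and the first cluster inside was 3R:2481906-2484337, found in replicate 2 only with 0.466. After the first window no member followed until 3R:2891759-2894099, whose midpoint is 62929 bases beyond the edge and which was found in replicate 2 only, with 0.408. The last cluster inside was 3R:2824334-2827708, found in both with 0.450.

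Set beside the other large arms, from which no window was removed, 3R was second to 2R in clusters per Mb. Its replicates had 42.3 ± 0.390 clusters per Mb (SD, n = 2), against 48.3 ± 0.736 on 2R, 37.6 ± 0.259 on 3L, 36.4 ± 0.189 on X and 34.5 ± 0.184 on 2L. The arms lay further apart than the replicates of any of them, but an exact permutation test over 2 replicates cannot pass 0.05, and none was made. Median score in the replicates was 0.603 ± 0.0211 on 3R, within the spread of 2L (0.600 ± 0.0125), 2R (0.605 ± 0.0213) and 3L (0.591 ± 0.0181) and lower than on X (0.683 ± 0.0248). Median width was 1947 ± 32.5 bases on 3R and lay between 1925 and 1988.5 bases on the others.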

How the data were processed

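The authors deposited 3 lists of enriched regions, 1 for each ChIP replicate and 1 for the replicate set, with 1 score per region. Its scale and normalization are not given in the labels or headers. Coordinates are on FlyBase release 5, per the file headers, and the submitters' processing notes name Bowtie 0.12.7. Region caller, threshold, use of the inputs and the pooling of replicates are likewise not given there. No list holds read counts, so depth is unknown and no precision follows from it.

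Members were taken by midpoint on 3R. Overlap with a replicate cluster meant at least 1 shared base, and pairs were formed by the largest overlap. Gaps are the bases between neighbouring clusters, without gaps that reach into a Hox window and without touching pairs. Bins count midpoints. Shares carry exact 95% Clopper-Pearson intervals. No p-value was computed, since the 2 ChIP replicates are of 1 condition. Regions named in the text follow a fixed rule: the 12 highest combined scores found in both replicates, the 8 widest members, the 5 longest gaps, the 3 densest and 3 emptiest bins of 1 Mb, the densest bins of 100 kb (5, with 1 more for a tie), the 5 highest scores found in neither replicate, and clusters at the window edges and arm ends. Chains, the longest gaps of single lists and the bins at the extremes of support were added after their values were seen. The members and lists were chosen with earlier results of these data known. Functions for overlap, joining and gaps were tested on simulated data. The computations used Python 3.11.15, NumPy 2.4.6, pandas 2.3.3, SciPy 1.17.1 and Matplotlib 3.10.9. The inputs were not analysed here.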

Additional observations from a re-analysis of the deposited data

Results flagged for a closer look

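The separate heterochromatic sequence 3RHet, of 2.52 Mb, lies outside the comparisons above and is named because it held clusters in a sequence that those comparisons do not use. It had 23 clusters in the combined list, 6 in replicate 1 and 4 in replicate 2.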

How the results depend on the processing

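Over 12 results, 68 alternative values were computed, of which 20 stayed within the spread between replicates (for shares the 95% interval, for the number of clusters 1.5 times, for rho the SD over the 5 large arms) and 48 moved beyond it. Removing every cluster with any base in a Hox window moved 0 of 9 results, and asking for an overlap of 50% of the smaller cluster moved 0 of 3. Keeping scores above the median of the combined list left 1206 clusters over 3.02 Mb, 44.3 per Mb, with a median width of 2198 bases, a median score of 0.491, a median gap of 10777 bases, a longest gap of 239.7 kb, and shares of 52.5% found in both replicates and 34.1% in neither. This setting keeps fewer clusters, with higher scores, by its construction. Joining clusters closer than 500 bases gave 87.97 per Mb over 5.77 Mb, a median width of 1861 bases and a median gap of 4032 bases. With clusters joined in every list the shares were 31.1% found in both and 47.2% in neither. Members found in both replicates alone gave 780 clusters over 2.50 Mb, 28.7 per Mb, a median width of 2758 bases, a median score of 0.541, a median gap of 17292 bases and a longest gap of 335.0 kb. With 1 replicate left out, that is with the other replicate's list alone, there were 1143 to 1158 clusters over 2.37 to 2.41 Mb, 41.98 to 42.5 per Mb, with median widths of 1924 to 1970 bases, median scores of 0.588 to 0.618, median gaps of 9778.5 to 10860.5 bases and longest gaps of 226.6 to 336.5 kb. Then 39.2 to 39.4% of members were found in the remaining replicate and 60.6 to 60.8% were not.

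The highest bin of 1 Mb held 1.55 times the median bin. This became 1.65 with bins shifted by 500 kb, 1.83 with bins of 500 kb, 1.69 by covered bases, 1.74 for members found in both replicates and 1.56 to 1.64 in single replicates. The lowest bin held 0.705 times the median, 0.583 with bins of 500 kb and 0.571 to 0.744 in single replicates. With width in place of score, the rank correlation of pairs was 0.54. For none of these changes was a cause tested.

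No paired analysis was possible because neither input has a list here. How far depth limits weak clusters cannot be given without read counts.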

Other observations

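The 3 highest scores among members found in neither replicate belonged to narrow clusters far from any replicate cluster. The cluster 3R:1849145-1850145, of 1001 bases, had a score of 2.63, the highest of all members, and the nearest clusters of replicate 1 and replicate 2 were 14041 and 14000 bases away. The same score, to every deposited decimal, was given to a second cluster of 1001 bases in the combined list, on 2R. At 3R:4228714-4229856, of 1143 bases, the score was 2.18, with 46996 and 45150 bases to the nearest clusters of replicate 1 and replicate 2. At 3R:26149680-26150722, of 1043 bases, it was 1.75. The next, 3R:21934435-21935547 and 3R:27155859-27157046, had scores of 1.11 and 0.898, and the first of these lay 644 bases from a member found in both replicates.

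Many members shared their score with another. Of the 2771 members, 680 (24.5%) had a score that a second member also had, to every deposited decimal. This applied to 59 of the 780 found in both replicates (7.56%) and to 499 of the 1373 found in neither (36.3%). The most frequent score, 0.412, belonged to 14 members spread over 26.7 Mb with widths from 1002 to 2086 bases, 11 of them found in neither. In the replicate lists 169 clusters (14.8%) in replicate 1 and 198 (17.1%) in replicate 2 shared a score.

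In the combined list the median score of a bin rose with distance from the centromere side, while the number of clusters did not. Over the 25 full bins of 1 Mb, Spearman's rho was 0.62 in the combined list, and the median score was 0.428 on the telomere side of the arm's midpoint and 0.415 on the centromere side. Among members found in neither replicate the rho was 0.67, with medians of 0.412 on the telomere side and 0.394 on the centromere side. Members found in both did not show this, with a rho of -0.12 and medians of 0.537 on the telomere side and 0.541 on the centromere side. The rho was 0.62 in replicate 1 and 0.09 in replicate 2. The median bin held fewer clusters on the telomere side in both, with 36 against 44 in replicate 1 and 38 against 45 in replicate 2. These patterns were chosen after the values were seen and the differences between them were not tested.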
